A study of Homo sapiens with 5 samples.

Results

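The EGF family ligands are 7 genes, AREG, EREG, TGFA, HBEGF, BTC, EPGN and NRG1, out of 61220 human genes with a GENCODE v44 identifier in the deposited tables. They were taken by name, and every transcript that GENCODE v44 assigns to them was summed per gene. All 64 such transcripts were listed in the tables, and 34 of them had at least 1 read. The study sequenced poly(A) RNA of NCI-H1975 and HCC827, established cell lines from lung adenocarcinoma, as PCR-amplified cDNA on a nanopore PromethION. Both lines are known for activating EGFR mutations, and HCC827 also for amplification of EGFR. The untreated lines were cultured in RPMI medium with fetal calf serum to near confluence. A single RNA preparation of each, labelled NCI-H1975 with sequin spike-in mix A and HCC827 with mix B, was combined at 5 mass ratios with 1 library each. Libraries are called by the NCI-H1975:HCC827 ratio: the pure 100:0 and 0:100, and the mixtures 75:25, 50:50 and 25:75. No ratio was replicated.

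EGF family ligands are made as membrane-anchored precursors that each carry an EGF-like domain. Proteases, chiefly ADAM17 and ADAM10, release the soluble factor, which binds receptors of the ERBB family on the same or a neighbouring cell. AREG, TGFA and EPGN bind EGFR, whereas EREG, BTC and HBEGF bind EGFR and ERBB4, and NRG1 binds ERBB3 and ERBB4. In airway epithelium and in lung adenocarcinoma these factors are known as autocrine and paracrine drivers of growth and repair.

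The libraries held 2926775 to 4054073 human reads. The 100:0 library had 5475 sequin reads, whereas 0:100, which the labels give as carrying mix B, had 0. Sequins entered neither scaling nor tests here. Along the series the mean length of the transcripts to which reads were assigned went from 2581 to 2180 bases, and mitochondrial reads went from 5.65% to 8.85%. Of the markers checked, all 7 of the lung adenocarcinoma list had reads, with a summed level of 5529 CPM (counts scaled to effective library size by the TMM method) in 100:0 and 16029 in 0:100. Most of that sum came from KRT7, KRT8, KRT18 and KRT19. Among the others NAPSA had 7 reads in 100:0, and EPCAM did not rise (376 CPM in 100:0 and 371 in 0:100). The fibroblast list (2 of 3 genes with reads, DCN at 0) summed to 185 CPM in 100:0 and 7.07 in 0:100. The squamous list (2 of 2) summed to 29.2 and 7.82 CPM and the endothelial list (2 of 2) to 0.590 and 1.12. The immune list (1 of 3, CD68, with PTPRC and CD3E at 0) summed to 56.6 and 94.5 CPM. The part of these differences in the ligand values was not tested. In bulk RNA, fewer expressing cells and less RNA per cell cannot be told apart.

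AREG and EREG rose with the HCC827 share of the RNA, by 2.65-fold and 2.54-fold between the pure libraries in TMM-scaled CPM. In TPM, which divides by transcript length and leaves out the TMM scaling, they rose 1.66-fold and 1.61-fold. TGFA and HBEGF fell, being 4.62-fold and 5.23-fold higher in NCI-H1975 in CPM (7.09-fold and 9.43-fold in TPM). BTC and NRG1 had no detected slope, and EPGN had 1 read in all. In the fit across all genes (edgeR quasi-likelihood test of the log2 slope against HCC827 mass fraction, Benjamini-Hochberg), 6 of the 7 genes passed the filter of 10 reads in 2 libraries and 4 had an adjusted p under 0.05, with 2 rising and 2 falling. That share is read against all 13492 genes tested, of which 45.8% were called, 23.5% rising and 22.3% falling. The median slope was 0.61 over the 6 ligands and -0.035 over all genes tested. The ligand median lies between the slopes of BTC (0.88) and NRG1 (0.34), neither of which was called. Slopes are log2 changes from 100:0 to 0:100 along a straight line fitted on the log2 scale. A mixture is linear in level and so curved on that scale. A slope can thus differ from the log2 ratio of the pure libraries, as for HBEGF (-1.73 against -2.39). With 1 library per ratio, slopes compare 2 RNA preparations. Intervals below cover counting error only, with PCR copies counted as separate reads.

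**Figure D1:**
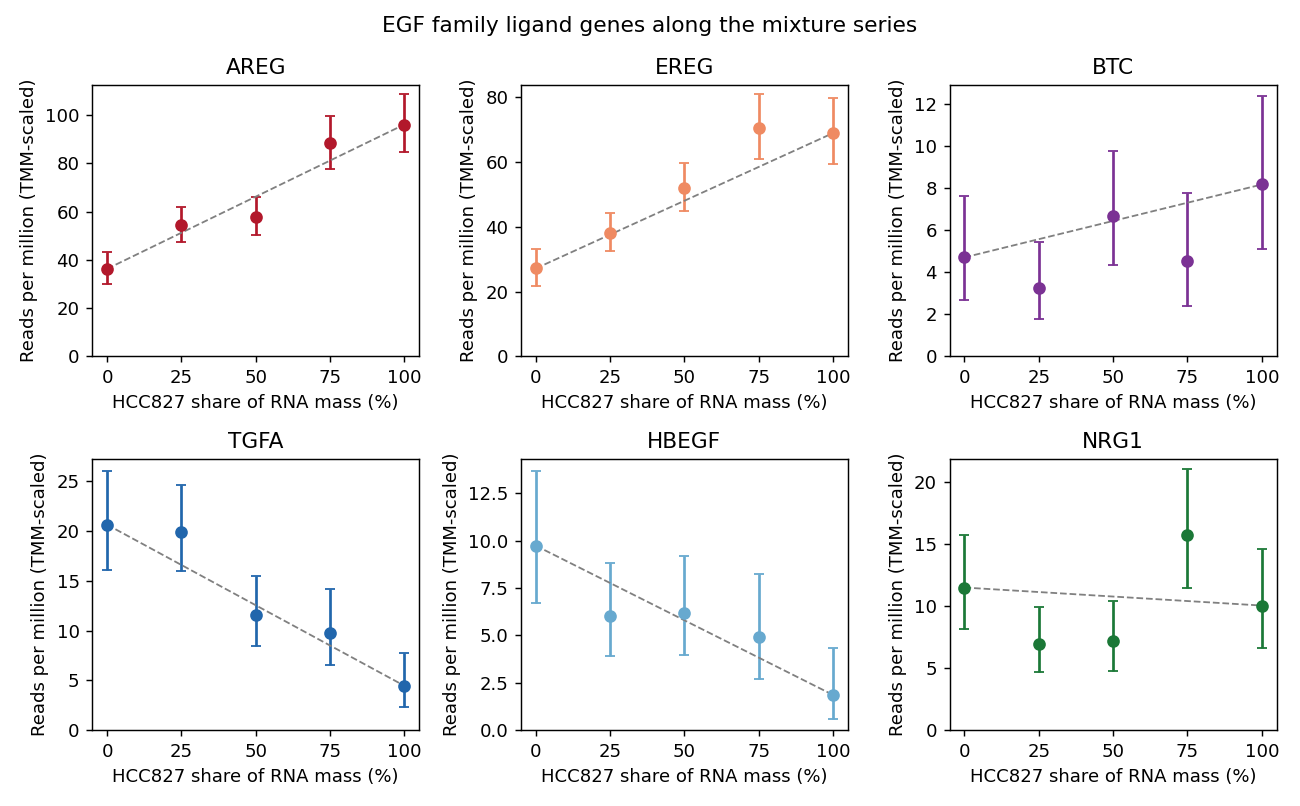
TMM-scaled CPM (vertical axis) of 6 ligand genes against the HCC827 share of RNA mass in percent (horizontal axis), 1 library per point. Bars are exact 95% Poisson intervals of the read count, and dashed lines join the pure libraries. AREG goes from 36.3 to 96.0 CPM, TGFA goes from 20.6 to 4.47, and NRG1 is highest in the 25:75 library at 15.7.

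AREG encodes amphiregulin, a ligand of EGFR that carries a heparin-binding stretch. The gene (ENSG00000109321.11, GRCh38 chromosome 4, 74445136 to 74455005, plus strand) had 123, 234, 225, 252 and 258 reads from 100:0 to 0:100. These are 36.3, 54.3, 57.8, 88.2 and 96.0 CPM. The values ran in order with the HCC827 share, and the intervals of the pure libraries (30.1 to 43.3 and 84.7 to 108 CPM) did not overlap. The ratio of 0:100 to 100:0 was 2.65 (exact 95% interval 2.13 to 3.31). The slope was 1.38 ± 0.17 (SE, edgeR, adjusted p = 4.28e-05), at percentile 91.2 of all slopes.

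EREG encodes epiregulin, which binds EGFR and ERBB4. It lies upstream of AREG on the same strand (ENSG00000124882.4, chromosome 4, 74365145 to 74388749). Its reads were 92, 164, 202, 201 and 185, or 27.1, 38.0, 51.9, 70.3 and 68.8 CPM. The level climbed to the 25:75 library and was about the same in 0:100, where the intervals (60.9 to 80.7 and 59.3 to 79.5 CPM) overlapped. The ratio of 0:100 to 100:0 was 2.54 (1.97 to 3.30), and the slope was 1.40 ± 0.20 (SE, edgeR, adjusted p = 1.13e-04).

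The start regions of AREG and EREG are shown because these neighbouring genes rose by similar slopes. Each line gives the 150 bases before the RefSeq start (GRCh38.p14, plus strand), chr4:74444986-74445135 and chr4:74364995-74365144. Capitals mark a match to the cyclic AMP response element, searched as TGACGTCA, or to the AP-1 element, searched as TGANTCA, on both strands. A window from 250 bases before to 50 after the start was searched, and the 2 motifs cannot match the same letters.
AREG: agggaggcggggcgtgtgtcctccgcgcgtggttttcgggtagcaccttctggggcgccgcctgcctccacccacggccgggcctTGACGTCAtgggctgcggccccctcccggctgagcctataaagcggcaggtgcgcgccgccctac
EREG: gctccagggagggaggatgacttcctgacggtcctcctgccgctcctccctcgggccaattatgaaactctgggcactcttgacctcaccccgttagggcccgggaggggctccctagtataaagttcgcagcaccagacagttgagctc
The AREG window held 1 match to TGACGTCA, whose first base is at position -65 from the start. The EREG window held neither motif, nor did those of BTC, EPGN, HBEGF and TGFA. NRG1 was left out of this search. Of 35116 promoter windows of this length, 1.85% held TGACGTCA and 7.71% held TGANTCA.

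AREG reads fell mainly on 2 protein-coding transcripts. AREG-201 has 6 exons, and AREG-202 lacks its exon 5 (chromosome 4, 74452544 to 74452655, 112 bases). The annotated coding sequence of AREG-201 ends inside exon 5, at 74452634. Without that exon the frame of AREG-202 runs on into the last exon and ends at 74454915, giving 822 coding bases against 756. The junctions that tell them apart are printed 5′ to 3′, with 15 bases on each side (GENCODE v44, plus strand). The upstream exon is in lower case and the downstream exon in capitals.
AREG-201 exon 4 to exon 5: tgttattacagtccaGCTTAGAAGACAATA
AREG-201 exon 5 to exon 6: aagataaaattacagGATATCACATTGGAG
AREG-202 exon 4 to last exon: tgttattacagtccaGATATCACATTGGAG
AREG-201 took 61.8%, 65.8%, 57.8%, 70.6% and 63.6% of the gene's reads, and AREG-202 took 36.6%, 31.2%, 40.9%, 27.4% and 34.9%. Shares in the pure libraries overlapped in their intervals (AREG-202, 28.1 to 45.7% and 29.1 to 41.0%). The exon-skipping share was highest in 50:50 and lowest in 25:75, so it did not follow the mixing ratio. The intervals of these 2 libraries, the extremes of the 5, did not overlap (34.4 to 47.6% and 22.0 to 33.3%). Variation beyond counting error was not tested. The retained-intron transcript AREG-203 had 21 reads in all.

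Isoform usage could be tested for AREG alone among the ligands, since the others had fewer than 2 transcripts past the read filter. AREG was not called (edgeR diffSpliceDGE with Simes summary, adjusted p = 1). Of all 7458 genes tested for usage, 30 were called, or 0.402%. Thus 0 ligands were called, 0 had an unadjusted p under 0.05, and the gene-level F test of the same tool also called 0. Taken singly, both transcripts rose, AREG-201 by 1.39 ± 0.23 (SE, edgeR, adjusted p = 1.23e-04) and AREG-202 by 1.21 ± 0.24 (adjusted p = 7.16e-04). Of the 6 ligand transcripts tested, 5 were called, against 33.6% of all 31758 transcripts tested. They were AREG-201, AREG-202, EREG-201, HBEGF-201 and TGFA-201, and BTC-201 was not called (adjusted p = 0.0987, edgeR).

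**Figure D2:**
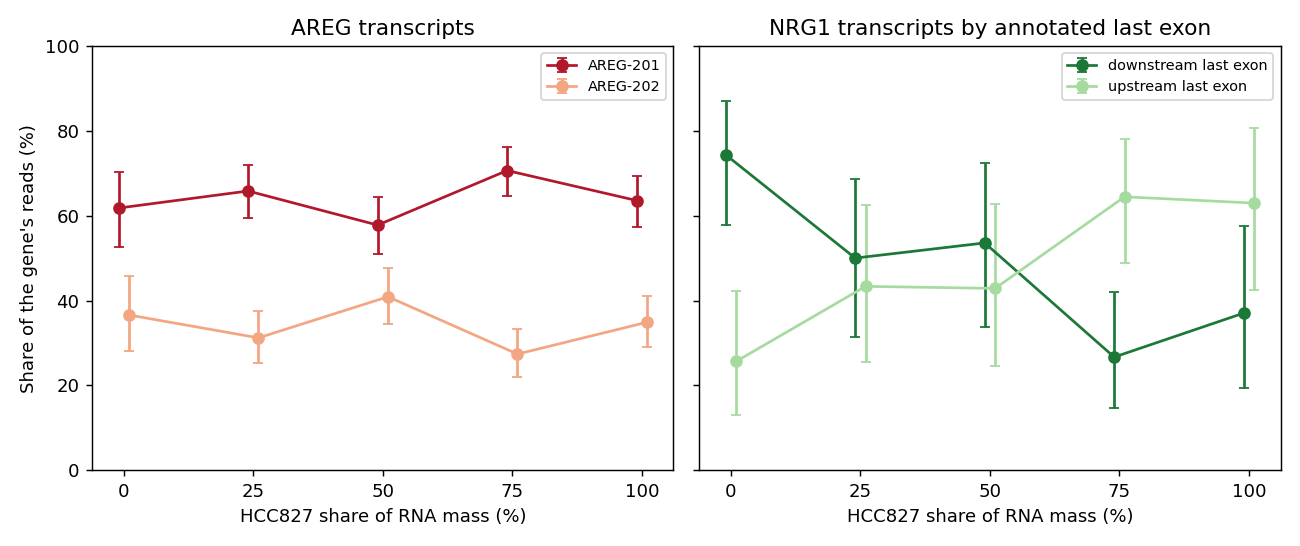
Share of a gene's reads in percent (vertical axis) on the 2 main AREG transcripts (left) and on NRG1 transcripts grouped by annotated last exon (right), against the HCC827 share of RNA mass in percent. Points are single libraries, set slightly apart for reading, and bars are exact 95% binomial intervals. AREG-202 lies between 27.4% and 40.9% with no order, and the upstream last exon of NRG1 goes from 25.6% to 63.0%.

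EREG reads were nearly all on EREG-201, the full-length coding transcript, with 90, 157, 191, 192 and 176 reads. EREG-203, which runs on from exon 3 into the next intron and has no coding sequence annotated, had 0 of 92 EREG reads in 100:0. The limit set for a count of 0, which is 3 reads, is 3.26%. It had 5, 8, 7 and 8 reads in the other libraries, or 4.32% (1.89 to 8.34%) of EREG reads in 0:100, so a difference was not detectable at this depth.

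TGFA encodes transforming growth factor alpha, a ligand of EGFR that resembles EGF. The gene (chromosome 2, 70447284 to 70554193, minus strand) had 70, 86, 45, 28 and 12 reads, or 20.6, 19.9, 11.6, 9.80 and 4.47 CPM. The values fell in order. The intervals of the pure libraries (16.1 to 26.1 and 2.31 to 7.80 CPM) did not overlap. TGFA was 4.62-fold (2.49 to 9.37) higher in 100:0 than in 0:100, and its slope was -1.98 ± 0.35 (SE, edgeR, adjusted p = 6.13e-04), at percentile 5.54. TGFA-IT1, which overlaps it, had 0 reads.

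The main TGFA transcript, TGFA-201, held 225 of the 241 TGFA reads and TGFA-203 held 11. They differ at the start of exon 3, where TGFA-201 keeps 3 bases that TGFA-203 leaves out, and in the length of the last exon. The junctions are shown because a 3-base difference is all that separates the coding sequences of 480 and 477 bases. Both lines give 15 bases of exon 2 in lower case and 15 of exon 3 in capitals (GENCODE v44, minus strand, chromosome 2).
TGFA-201 exon 2 to exon 3: cgtccccgctgagtgCAGACCCGCCCGTGG
TGFA-203 exon 2 to exon 3: cgtccccgctgagtgACCCGCCCGTGGCTG
TGFA-203 had 3, 5, 2, 0 and 1 reads along the series. How reads were divided between transcripts this similar is not given in the sources used here.

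HBEGF encodes heparin-binding EGF-like growth factor, a ligand of EGFR and ERBB4. The gene (chromosome 5, 140332843 to 140346603, minus strand) had 33, 26, 24, 14 and 5 reads, or 9.73, 6.03, 6.16, 4.90 and 1.86 CPM. The 100:0 library was highest and 0:100 lowest, with the others between them. HBEGF was 5.23-fold (2.03 to 17.2) higher in 100:0 than in 0:100, and its slope was -1.73 ± 0.51 (SE, edgeR, adjusted p = 0.0146). The call rested on the end libraries. Without 100:0 the slope was -1.67 with adjusted p = 0.112, and without 0:100 it was -1.23 with adjusted p = 0.146 (edgeR). Setting 10 reads as the floor of a library lowers the difference between the pure libraries from -2.39 to -1.39 on the log2 scale. HBEGF-201, the coding transcript, held 94 of 102 reads. The retained-intron transcript HBEGF-202 had 5, 2, 1, 0 and 0.

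BTC encodes betacellulin and lies downstream of AREG on the opposite strand (chromosome 4, 74744759 to 74794523). It had 16, 14, 26, 13 and 22 reads, or 4.72, 3.25, 6.68, 4.55 and 8.19 CPM. The libraries were not in order, and the intervals of the pure libraries (2.70 to 7.66 and 5.13 to 12.4 CPM) overlapped. The ratio of 0:100 to 100:0 was 1.74 (0.871 to 3.54), and the slope of 0.88 ± 0.54 was not called (SE, edgeR, adjusted p = 0.20). The interval thus holds both no difference and a rise of up to 3.54-fold, which these counts cannot tell apart.

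EPGN encodes epigen and is the first gene of the group on chromosome 4 (74308470 to 74316789). It had 1 read, in the 50:50 library, and 0 in the others. A count of 0 allows up to 3 reads, which is 0.696 to 1.12 CPM in those libraries, so no fold is given.

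NRG1 encodes neuregulin 1, a ligand of ERBB3 and ERBB4 that is made in many forms from several start sites. The gene (chromosome 8, 31639222 to 32855666, plus strand) had 39, 30, 28, 45 and 27 reads, or 11.5, 6.96, 7.19, 15.7 and 10.0 CPM. The highest value stood in the 25:75 library and the lowest in 75:25, so the values did not lie between those of the pure libraries. The ratio of 0:100 to 100:0 was 0.874 (0.514 to 1.46). The slope of 0.34 ± 0.48 was not called (SE, edgeR, adjusted p = 0.581), and its sign turned without the 25:75 library (-0.088) and under scaling by library totals (-0.066). Its 6 overlapping annotated genes had 0 reads.

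NRG1 reads were spread over 19 transcripts, none of which had 10 reads in 2 libraries. They were grouped by annotated last exon after their values were seen, so the shares are given with no test. In 9 transcripts the last exon starts at 32763748. In 6 it starts further upstream, at 32742675, and there the annotated coding sequence also stops. Each group had 81 reads. The upstream last exon took 25.6% (13.0 to 42.1%) of NRG1 reads in 100:0, then 43.3%, 42.9%, 64.4% and 63.0% (42.4 to 80.6%) in 0:100. The downstream one took 74.4% in 100:0 and 37.0% in 0:100. NRG1-223 (upstream last exon) had 5, 5, 2, 13 and 8 reads, NRG1-202 (downstream) had 8, 7, 6, 0 and 2, and NRG1-235 (downstream) had 7, 2, 4, 8 and 3. Transcripts with the upstream end are 886 to 1955 bases long and those with the downstream end 1769 to 11983 in GENCODE v44, whose lengths differ from the deposited ones for 3 NRG1 transcripts. The mean length of assigned transcripts over all genes fell along the series as well, and its part in these shares was not tested.

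By first base the NRG1 reads fell into 3 groups. The group starting between 32548235 and 32548730 took 41.0% of reads in 100:0 and 51.9% in 0:100. The far upstream group, starting between 31639245 and 31640426, took 17.9% and 25.9%. The downstream group, starting between 32605648 and 32647962, took 41.0% (25.6 to 57.9%) and 22.2% (8.62 to 42.3%). For all 3 groups the intervals of the pure libraries overlapped.

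A mixture of RNAs should be linear in counts over library totals. In TMM-scaled CPM this holds only as far as the TMM factors follow the mixing. Those factors were 1.16 in 100:0 and 0.869 in 0:100. The 3 mixed libraries were set beside the line that joins the pure ones in TMM-scaled CPM. Of 18 values (6 genes in 3 libraries), the line lay inside the 95% Poisson interval for 12 at the mass fraction, and for 11 at the HCC827 fraction estimated from 10019 genes (32.7%, 55.4% and 78.2%). That fraction was estimated from reads without TMM scaling, so the count of 11 sets an unscaled fraction against TMM-scaled values. At the mass fraction, the line lay outside the interval for all 3 NRG1 values. AREG at 50:50 (57.8 CPM) was below its line of 66.1, EREG at 25:75 (70.3) above its line of 58.4, and BTC at 75:25 (3.25) below its line of 5.58. The intervals hold neither the error of the line nor variation between libraries.

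The 7 genes together made up 110 CPM in 100:0 and 189 in 0:100, with 128, 142 and 193 between. AREG and EREG took 57.6% (52.4 to 62.7%, exact binomial) of those reads in 100:0, then 71.8%, 77.5%, 81.9% and 87.0% (83.8 to 89.8%) in 0:100. TGFA took 18.8% (14.9 to 23.1%) in 100:0 and 2.36% (1.22 to 4.08%) in 0:100, and HBEGF took 8.85% and 0.982%. The share of AREG and EREG climbed at each step of the series. The inner libraries are mixtures of the same 2 RNAs, so this order is no separate evidence of the difference. These are shares of reads, which are not scaled for length. Per transcript length AREG and EREG took 69.6% in 100:0 and 90.4% in 0:100.

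For the order of the genes by level, reads were divided by transcript length and given as TPM (length-scaled abundance relative to all transcripts of a library). AREG was highest in every library, at 44.4 in 100:0 and 73.9 in 0:100, and EREG was next, at 9.12 and 14.6. In 100:0 the following genes were TGFA (7.87), HBEGF (6.36), NRG1 (4.77) and BTC (4.36), and each neighbouring pair from EREG down overlapped in its counting interval. In 0:100 the order was NRG1 (4.18), BTC (3.42), TGFA (1.11) and HBEGF (0.675). There EREG stood apart from NRG1 and BTC from TGFA, whereas NRG1 and BTC, and TGFA and HBEGF, overlapped. A long read counts a cDNA once whatever its length, so this division favours short transcripts such as those of AREG. The scale also moved the difference between the lines, in a comparison added after the values were seen. TPM leaves out the TMM scaling too, so its ratios differ from those in CPM by more than the division by length. For AREG the log2 ratio of 0:100 to 100:0 was 1.40 with TMM, 0.99 under library totals alone and 0.74 as TPM. As TPM, AREG and EREG were 1.66-fold and 1.61-fold higher in 0:100 than in 100:0, and TGFA and HBEGF were 7.09-fold and 9.43-fold higher in 100:0. BTC, uncalled, turned from 1.74 to 0.784 (0:100 over 100:0). That turn rests on few reads of a short transcript. BTC-202 (624 bases) had 4 reads in 100:0 and 2 in 0:100, whereas BTC-201 (2653 bases) had 12 and 20.

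**Figure D3:**
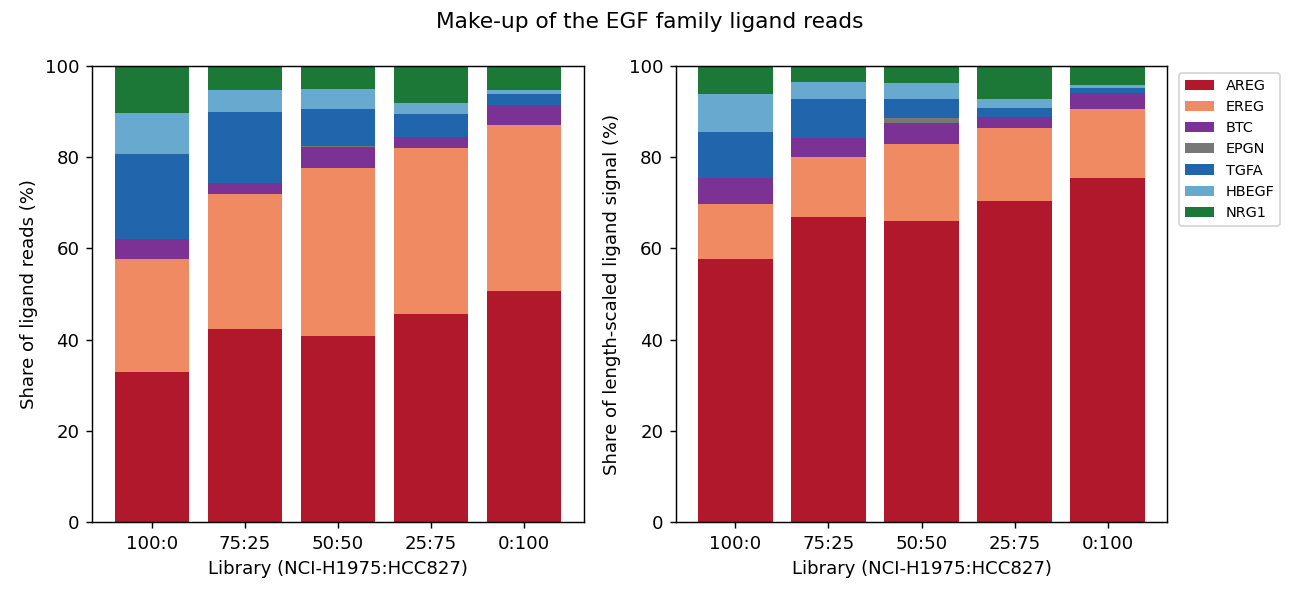
Make-up of the reads of the 7 ligand genes in each library, as a percent of ligand reads (left) and of length-scaled ligand signal (right). Each bar is 1 library, and colours are genes. AREG and EREG grow from 57.6% to 87.0% of reads, while TGFA and HBEGF shrink.

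AREG, EREG, EPGN and BTC are neighbours on chromosome 4, and the genes around them were examined after the values of the ligands were known. From 500 kb before EPGN to 500 kb after BTC the annotation has 36 genes, of which 9 passed the read filter and 3 were called, AREG, EREG and the chemokine gene CXCL5. That is no larger a share than the 45.8% called over all genes. The window was drawn around the ligands, so its count includes AREG and EREG themselves. Of the tested genes that are not ligands, CXCL5 alone was called. CXCL5 stood at 0.885 CPM in 100:0 and 22.0 in 0:100, and its slope was 2.68 ± 0.55 (SE, edgeR, adjusted p = 0.00151). The slopes of the other 6 ran from -0.51 (MTHFD2L) to 0.88 (BTC). MTHFD2L, on the EREG side of the cluster, had 12.1 CPM in 100:0 and 8.56 in 0:100 and was not called (edgeR, adjusted p = 0.226).

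**Figure D4:**
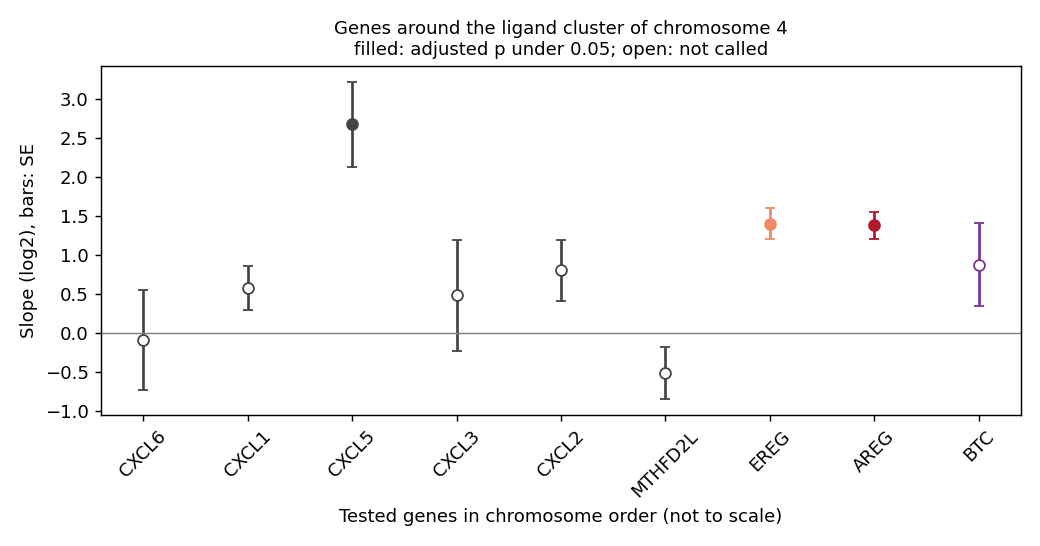
Slope along the series (log2 change from 100:0 to 0:100, vertical axis) of the 9 tested genes around the chromosome 4 ligands, in chromosome order and not to scale. Bars are SE, filled points were called and open points were not. AREG, EREG and CXCL5 are called and rise, and MTHFD2L is the lowest at -0.51.

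Partners of the ligands came from a list of 30 genes chosen by role, with earlier results of these data known. Of these, 23 were tested and 13 were called, 8 rising and 5 falling (edgeR), against 45.8% of all genes. Their median slope was 0.12. Under scaling by library totals, which moved the median slope of all genes from -0.035 to -0.44, 11 were called with 3 rising and 8 falling. DESeq2's Wald test called 10. Under library totals the share of all calls that rose was 26.2%, against 51.3%. AREG, EREG, TGFA and HBEGF kept their directions and calls under that scaling, with slopes of 0.97, 0.99, -2.39 and -2.14.

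Among receptors, EGFR, ERBB2 and ERBB3 rose, 3 of 3 tested, where 23.5% of all genes tested rose. EGFR, the receptor of 6 of the ligands, stood at 92.9 CPM in 100:0 and 961 in 0:100, and its slope was 2.96 ± 0.38 (SE, edgeR, adjusted p = 4.94e-05). ERBB3, the partner of ERBB2 that binds NRG1, went from 32.7 to 77.0 CPM. ERBB2 had a slope of 0.53, and its call was lost under library totals (slope 0.12), without 25:75 (adjusted p = 0.0531, edgeR), without 0:100 (adjusted p = 0.0946, edgeR) and in DESeq2's Wald test (adjusted p = 0.0561). ERBB4 had 2 reads in all. Of the ligands that are no members here, EGF had 8 reads, NRG4 had 10, and NRG2 and NRG3 had 0.

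Of the 7 tested genes that act in shedding, 1 rose and 1 fell, against 23.5% and 22.3% of all genes tested. RHBDF2, the inactive rhomboid that carries ADAM17 to the cell surface, rose with a slope of 0.97 (edgeR, adjusted p = 0.00533), which was not called under library totals. ADAM10, the other main sheddase, fell. It stood at 58.7 CPM in 100:0 and 28.3 in 0:100, and its slope was -0.96 (edgeR, adjusted p = 7.73e-04). ADAM17, the main sheddase of AREG, EREG, TGFA and HBEGF, had 33.3, 26.2, 31.8, 23.8 and 31.6 CPM. Its slope of -0.11 ± 0.24 was not called (SE, edgeR, adjusted p = 0.735). TIMP3, an inhibitor of ADAM17, had 0 reads in each library.

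In ligand trafficking 3 of 5 tested genes rose, against 23.5% of all genes tested. AP1M2, the epithelial adaptor subunit for basolateral sorting, had the largest slope, 1.85 ± 0.20 (SE, edgeR, adjusted p = 1.63e-05), and went from 34.2 to 146 CPM. GORASP2, a Golgi protein that binds the TGFA precursor, rose by 0.75, and CD9, a tetraspanin that associates with the HBEGF precursor, by 0.59. Neither was called under library totals. GORASP1 had the smallest slope, 0.12.

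Of the 8 regulators and adaptors of the receptors, 1 rose and 4 fell, against 23.5% and 22.3% of all genes tested. LRIG1, which promotes degradation of ERBB receptors, fell. It stood at 13.3 CPM in 100:0 and 1.12 in 0:100, and its slope was -3.77 ± 0.53 (SE, edgeR, adjusted p = 1.01e-04), on 45 reads in 100:0 and 3 in 0:100. ERRFI1, a feedback inhibitor of EGFR, rose by 0.50. It was not called under library totals (slope 0.087) or without 100:0 (adjusted p = 0.0954, edgeR). The adaptor genes SHC1, GRB2 and SOS1 fell, with slopes of -0.48, -0.54 and -0.72. Without the 100:0 library these 3 were not called, with adjusted p-values of 0.0618, 0.216 and 0.0834 (edgeR). Without 0:100 GRB2 (0.135) and SOS1 (0.228), and without 75:25 SOS1 (0.0516), were not called either. DESeq2's Wald test left GRB2 (adjusted p = 0.0529) and SOS1 (adjusted p = 0.0945) uncalled as well.

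**Figure D5:**
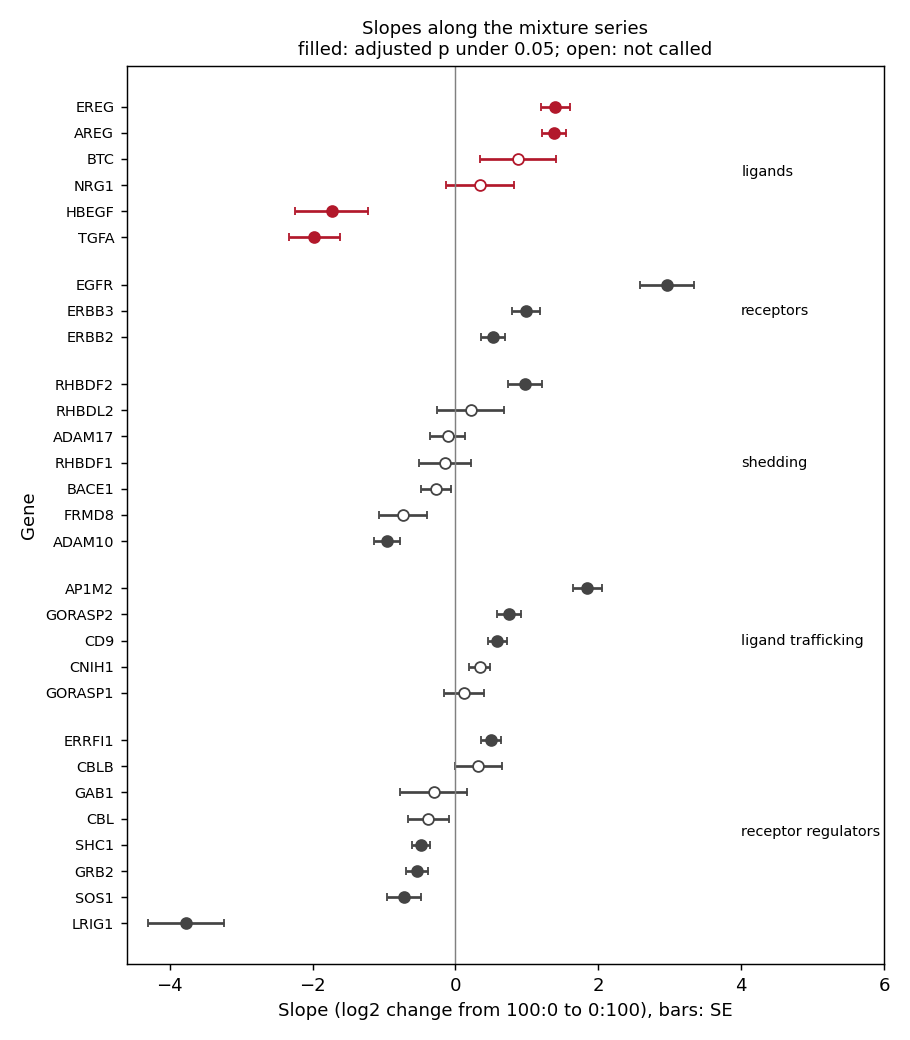
Slopes along the mixture series (log2 change from 100:0 to 0:100, horizontal axis) of the tested ligands (red) and of the tested genes of the partner list (grey), grouped by role. Bars are SE, filled points were called and open points were not. Ligand slopes run from -1.98 for TGFA to 1.40 for EREG.

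The genes with profiles most like those of the ligands were found from log2 CPM centred on each gene's mean over the 5 libraries, among 11015 genes with at least 100 reads. By root mean square difference, AREG was nearest to MB (0.023) and KLHDC4 (0.027), and EREG to ARHGAP8 (0.040) and MT-ND1 (0.041). TGFA was nearest to IL7R (0.064) and ATG9B (0.072), and HBEGF to PRAME (0.053) and ZNF544 (0.059). For NRG1 they were ANAPC15 (0.068) and ENSG00000280416 (0.090). All genes share the same 5 libraries, and any gene with a like ratio between the lines has a like profile.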

How the data were processed

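The 5 libraries, 1 per mixing ratio, were analysed. The deposited tables give, per transcript, the authors' estimated count of reads, unscaled, and a length. minimap2 2.24, Salmon 1.9.0 and build GRCh38 are named in the submitters' processing notes; settings and annotation release are not given in the sources used here. Counts were rounded (2 values were not whole), repeated identifiers (161, none of a ligand) were summed, and 224076 of 227751 human transcripts, with 98.6% of human reads, were paired with GENCODE v44 genes. Deposited lengths matched GENCODE v44 for 61 of the 64 ligand transcripts.

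Members and lists were chosen with earlier results of these data known. Genes and transcripts with at least 10 reads in at least 2 libraries were fitted with edgeR 4.0.16 (R 4.3.3), TMM scaling on human reads and a quasi-likelihood F test of the slope on HCC827 mass fraction, adjusted over all features tested (threshold 0.05). The SE is the slope divided by the root of F. Isoform usage used diffSpliceDGE. The fit was tested on simulated data in which 200 of 13492 genes were changed. There it recovered 46 of 100 genes changed 2-fold and 93 of 100 changed 4-fold, with 4 false calls. Changes near 2-fold were thus often missed in that setting. In the real fit 45.8% of genes were called, which moves the cut of the adjusted p, so these rates do not carry over. The share of changes missed in the real data was not measured. Alternatives used DESeq2 1.42.0 and limma 3.58.1, other scalings and filters, and fits without 1 library. Named genes were the members, their transcripts with 20 reads or more, list genes in counts of 5 or fewer, the extremes of each role group and the 2 nearest profiles. TGFA-203, HBEGF-202 and BTC-202, with fewer reads than that, and the genes around the chromosome 4 ligands were named after their values were seen. Promoter windows are from RefSeq (GRCh38.p14). The counting intervals are exact at 95%; the limit of a count of 0 is set at 3 reads.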

Additional observations from a re-analysis of the deposited data

How the results depend on the processing

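The 4 ligand calls were made again under DESeq2 size factors, library totals, no read filter, DESeq2's Wald test, limma-voom, the fraction estimated from reads, the first copy of repeated identifiers, and in the fits without 75:25, 50:50 or 25:75. With 10 reads required in every library HBEGF could not be tested, and 3 ligands were called. Fits without 1 library gave 3 to 4 ligand genes, 4 to 5 ligand transcripts, 9 to 14 list genes, 0 to 0 ligands for isoform usage and 4067 to 5859 of all genes against 6175. HBEGF lost its call without 100:0 or 0:100. Over all alternatives the slope ran from 0.97 to 1.56 for AREG, from 0.99 to 1.82 for EREG, from -2.55 to -1.60 for TGFA and from -2.14 to -1.23 for HBEGF. The NRG1 slope, not called in any fit, turned negative under library totals (-0.066) and without 25:75 (-0.088), and was highest without 100:0 (1.15). Under library totals the log2 ratio of 0:100 to 100:0 was 0.99 for AREG and 0.93 for EREG, against 1.40 and 1.34, since that scaling moves all genes. With a floor of 10 reads per library that of HBEGF, which had 5 in 0:100, was -1.39 against -2.39. TPM, an alternative added after seeing the data, divides by length and also leaves out the TMM scaling. As TPM the log2 ratios were 0.74 for AREG, 0.68 for EREG, -2.83 for TGFA, -3.24 for HBEGF and -0.35 for BTC. That of BTC was 0.80 as CPM, and its value as TPM rests on few reads of the short transcript BTC-202. No paired analysis was possible because each ratio had 1 library and no replicate number pairs them. HBEGF, BTC and NRG1 had at most 45 reads in a library, which limits their precision.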
